A study of Homo sapiens with 40 samples.

Results

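SETD2 knockout (KO) cells of the 786-0 line were compared between 5 days of combined DAC and BMN treatment and the untreated state at day 0. 786-0 is an established line of human clear cell renal cell carcinoma. DAC is decitabine, given at 100 nM, and BMN is BMN673 (talazoparib), given at 10 nM. The comparison takes 4 of the 40 RNA-seq libraries of the series: the 2 labelled SETD2 KO, day 5, DAC with BMN, and the 2 labelled SETD2 KO, day 0, control. All 4 carry the SETD2 knockout, and the labels do not say how it was made or whether the line is 1 clone. The same 4 libraries are set beside KO cells given DAC alone or BMN alone for 5 days, beside KO cells on the combination at days 16 and 26, and beside SETD2 wild-type (WT) cells of the same line at day 0 and after 5 days of the combination, each with 2 libraries. No control was labelled for any day after day 0, so the treatment and the 5 days in culture cannot be told apart. The labels do not say whether the 2 libraries of a group came from separate cultures, so p-values measure only the spread between these libraries, which may be technical.

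Decitabine is a cytidine analogue that enters DNA during replication and traps DNA methyltransferases, so that methylation is lost as cells divide. Genes kept silent by promoter methylation, among them germline genes and endogenous retroviral elements, are known to be expressed after such loss, and interferon-stimulated genes are known to follow. Talazoparib blocks the catalysis of PARP1 and PARP2 and holds these repair enzymes on DNA. SETD2 is the methyltransferase that places the third methyl group on lysine 36 of histone H3, a mark over transcribed gene bodies that recruits de novo DNA methyltransferases and repair factors.

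The 40 libraries held 17833960 to 22631101 counts each, and the 4 compared here 17949229 to 19588082. Replicates correlated with Pearson's r = 0.9888 across genes (log2 CPM) in both groups, as a description, since genes are not independent replicates. Levels are given in CPM, counts scaled to the size of each library. SETD2 mRNA stood at 141 and 113 CPM in the KO controls and at 115 and 108 CPM under the combination. WT controls averaged 139 CPM. SETD2 transcript was therefore present in the libraries labelled KO, and a count over the whole gene does not check a knockout that can leave the transcript in place. The labelled cell type was checked on 13 genes known in 786-0 cells, of which 2 were higher and 6 lower under the combination and CA9, a hypoxia marker, had no count in either control: VIM, the mesenchymal filament gene common in this line, and CCND1 averaged 4171 and 949 CPM in the KO controls, and PAX2, a renal lineage factor, averaged 87.3 CPM.

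The combination was followed by changes in a large share of the measured genes (the plot of all genes against their control level). Of 22527 genes tested, 6095 were higher and 4998 lower at an adjusted p below 0.05 (edgeR's quasi-likelihood test, Benjamini-Hochberg adjustment), which is 27.1% and 22.2% of the genes tested. Counts of list members against control, given below, are to be read beside these 2 shares. At least 2-fold changes were more often increases: 3548 genes (15.7%) passed and rose at least 2-fold and 1074 (4.77%) passed and fell at least 2-fold. The balance of calls was less uneven than these: 54.9% of the passing genes were higher, and 49.9% without control replicate 2. Genes with a mean control level of 10 to 100 CPM rose at least 2-fold in 265 of 7237 cases and fell in 355, and genes above 100 CPM rose in 39 of 2553 cases and fell in 163. Long intergenic noncoding genes, as typed by GENCODE 29, rose at least 2-fold in 460 of 1427 cases (32.2%), against 2055 of 14242 protein-coding genes (14.4%). A low-level gene enters the test only if some group of the series has enough counts, so such shares describe the tested genes and were not tested.

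**Figure D1:**
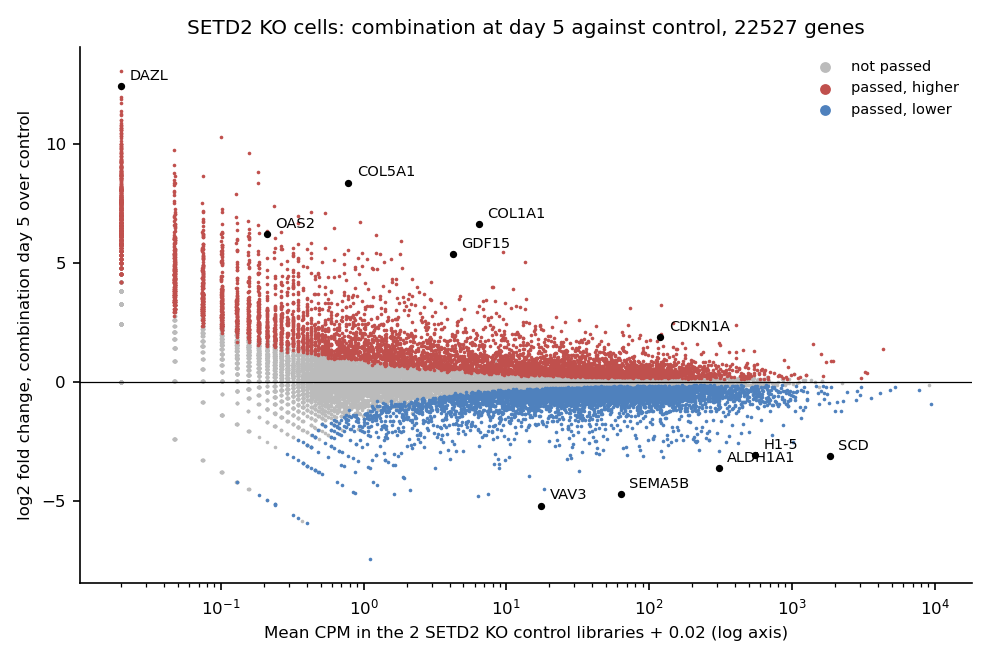
Each point is 1 of 22527 genes. The x axis is the mean CPM of the 2 KO control libraries plus 0.02 on a log axis and the y axis the log2 fold change of the combination at day 5 over control, with genes that passed and were higher in red, passed and lower in blue and not passed in grey; the cloud of increases lies at low control levels, with DAZL at the zero end, while SCD and H1-5 are decreases at high control levels. Fold changes at the zero end depend on the prior count of the fit.

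Many of the tested germline genes started from zero. The 8 symbol-named genes with the highest level under the combination among those without a single count in either control were DAZL, PNMA5, PTPN7, MAGEB2, TEX13C, PNMA6E, LOXL4 and ADGRF5. The bases before the start sites of DAZL, PNMA5 and MAGEB2 are printed as chosen examples. DAC acts on CpG methylation, and these genes went from no count to over 20 CPM, as did PTPN7, which is not printed. The windows are 250 bases upstream of the RefSeq start (GRCh38.p14), with each CpG in capitals, and lie at chr3:16605424-16605673 (minus strand), chrX:152994117-152994366 (minus strand) and chrX:30215313-30215562 (plus strand).
DAZL: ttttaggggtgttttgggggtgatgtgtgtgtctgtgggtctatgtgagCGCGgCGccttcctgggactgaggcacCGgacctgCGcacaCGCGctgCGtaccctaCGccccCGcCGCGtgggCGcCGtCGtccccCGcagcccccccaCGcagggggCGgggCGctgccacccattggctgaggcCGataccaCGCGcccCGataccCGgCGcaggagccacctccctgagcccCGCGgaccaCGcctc
PNMA5: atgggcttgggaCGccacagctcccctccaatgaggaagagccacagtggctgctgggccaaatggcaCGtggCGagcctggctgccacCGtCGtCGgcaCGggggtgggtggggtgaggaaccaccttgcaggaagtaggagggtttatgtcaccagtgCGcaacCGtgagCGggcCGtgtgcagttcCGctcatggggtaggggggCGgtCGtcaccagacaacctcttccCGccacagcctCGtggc
MAGEB2: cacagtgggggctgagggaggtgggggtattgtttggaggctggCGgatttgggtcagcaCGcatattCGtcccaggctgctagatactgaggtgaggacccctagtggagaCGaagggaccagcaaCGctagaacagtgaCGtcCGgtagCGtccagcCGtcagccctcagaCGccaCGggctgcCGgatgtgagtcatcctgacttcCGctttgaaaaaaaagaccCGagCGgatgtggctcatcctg
The windows hold 28, 16 and 15 CpG, more than the median of 9.0 over matched genes that passed as higher with no control count. Their methylation was not measured. The PNMA5 and MAGEB2 windows end directly at the gene spans of the deposited table (X:152988824-152994116 and X:30215563-30220089), and the DAZL window lies inside the longer DAZL span, 3:16586792-16670306.

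DAZL encodes an RNA-binding protein of germ cells. DAZL read 0 and 0 CPM in the controls and 33.5 and 35.1 CPM under the combination, at least 209.6-fold higher over a floor of 3 counts per library. PNMA5, a paraneoplastic antigen gene related to retroviral gag, read 0 and 0 CPM in the controls and 34.8 and 30.1 CPM under the combination, at least 198-fold higher. MAGEB2, a cancer-testis antigen of the MAGE family, read 0 and 0 CPM in the controls and 21.2 and 21.5 CPM under the combination, at least 130.4-fold higher. In each of the 3 genes both combination libraries were high and both controls empty. MAGEA4, another MAGE antigen, went from 0 and 0 CPM to 12.3 and 11.3 CPM. PTPN7, a tyrosine phosphatase of blood cells, went from 0 and 0 CPM to 25.3 and 24.9 CPM. Neither gene had a control count, so any fold is a lower bound, at least 72.1-fold for MAGEA4 and at least 153-fold for PTPN7. Among 53 listed cancer-testis and germline genes, 40 were tested, and 38 of them were higher, none lower and 2 not passed, the latter TEX14 (0.302 to 0.499 CPM) and DPEP3 (0 to 0.0279 CPM). Their median log2 difference was 7.31 as fitted and 4.46 with the 28 genes that had no control count set at their floor, beside 0.084 over all genes tested. The 1893 tested genes at 0 to 0.1 CPM in control had a median of 4.32 as fitted. Of these, 67.4% passed and rose at least 2-fold and 0 fell as much. A gene without control counts passes the filter only through other groups and cannot be called lower. Counts for MAGEA3, MAGEA6, PNMA6E and the SPANX genes are uncertain, since they have near-identical copies and reads of low mapping quality were not counted.

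CpG counts before the start sites are given as a description. RefSeq windows matched 12769 of 19193 tested genes with a symbol, and the median window held 20 CpG over all of these, 20 over genes at least 2-fold lower and 11 over genes at least 2-fold higher, with quartiles of 4.0 and 22 in the last group. All 27305 windows of the RefSeq table had a median of 11 CpG, with quartiles of 3 and 23, the same median as that of the genes at least 2-fold higher. For genes with no control count that passed as higher the median was 9.0 CpG, over 363 matched genes. Of the 40 tested cancer-testis and germline genes 34 matched, with a median of 10. No methylation was measured, and these counts describe sequence only. Genes known for promoter methylation in cancer were higher in 16 of 28 cases and lower in 6, with a median log2 of 1.71 (1.27 with the 6 genes empty in control at their floor). BNC1, a zinc finger protein gene, went from 0.108 and 0 CPM to 11.1 and 11.2 CPM, and CDH1, the epithelial cadherin, from 0 and 0 CPM to 0.774 and 1.23 CPM. RASSF1 and APC, a pair of tumour suppressor genes, did not pass (adjusted p = 0.2 and 0.38). Genes derived from retroviruses and retrotransposons were higher in 10 of 16 cases and lower in 5: ERVH48-1, which encodes a retroviral envelope, went from 0 and 0 CPM to 1.99 and 1.73 CPM, while RTL8C, a domesticated gag gene, did not pass (adjusted p = 0.069). The 5 lower genes, named after their values were seen, were PEG10, RTL6, RTL8A, RTL8B and PNMA1. The summed level of the 16 genes fell, from 1093 to 1164 CPM in the controls to 662 to 668 CPM under the combination. These are single annotated genes, and retroviral repeats at large are not analysed here.

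Most collagen genes rose, and COL5A1 and COL1A1 did so from low control levels. COL5A1, the chain of type V collagen that starts fibril assembly, read 0.756 and 0.771 CPM in the controls and 250.1 and 255 CPM under the combination (log2 difference 8.36 ± 0.14 SE, adjusted p = 2.2e-30). COL1A1, the main chain of type I collagen, read 6.42 and 6.34 CPM in the controls and 622 and 633 CPM under the combination (log2 6.62 ± 0.13 SE, adjusted p = 1.2e-28). Groups did not overlap for either gene, and the replicates lay close together. Of 28 tested collagen genes 21 were higher and 4 lower, with a median log2 of 2.87 (2.28 with the 4 genes empty in control at their floor). Their summed level was 4298 to 4366 CPM in the controls and 5702 to 5721 CPM under the combination. The 4 that fell, named after their values were seen, were COL4A1, COL4A2, COL8A1 and COL18A1. COL27A1 did not pass, at 159 CPM in control and 172 CPM under the combination. Of 33 tested matrix and protease genes 22 were higher and 7 lower. Among them MMP1, the interstitial collagenase, went from 0.216 and 0 CPM to 12.8 and 15.4 CPM (adjusted p = 9.4e-18), and LOXL4, a collagen cross-linking oxidase, from 0 and 0 CPM to 14.1 and 16 CPM. MMP14, which activates other matrix proteases, did not pass, with means of 417 CPM in control and 445 CPM under the combination (adjusted p = 0.3), and further genes that did not pass are given by their control and combination means in this order.

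Several genes that mark stromal, endothelial or blood cells rose as well. ENG (endoglin, a TGF-beta co-receptor) read 0.378 and 0.661 CPM in the controls and 67.2 and 73.5 CPM under the combination (log2 7.07 ± 0.22 SE, adjusted p = 2.5e-23). THY1 (CD90) read 0.378 and 0.276 CPM in the controls and 33.2 and 35 CPM under the combination (log2 6.68 ± 0.21 SE, adjusted p = 3.2e-23). Of 16 tested markers on this list of 25 genes 10 were higher, none lower and 6 not passed. The summed level of the 16 was 188 to 205 CPM in the controls and 849.7 to 877 CPM under the combination. PTPRC, CD3E, PECAM1, CDH5 and PDGFRA, which mark leukocytes, endothelium and fibroblasts, had at most 0.614 CPM in any of the 4 libraries, and HBB had no count in any. CDH5 went from 1 and 0 counts in the controls to 7 and 11 under the combination, and PTPRC from 0 and 0 to 4 and 5. Neither was among the genes tested. PECAM1 and PDGFRA had at most 2 counts in any of the 4 libraries. Some tested markers of such cells passed as higher, VWF at a level like that of CDH5. VWF, of endothelium, went from 0 and 0 CPM to 0.498 and 0.558 CPM (adjusted p = 0.00059), TEK, an endothelial receptor, from 0.162 and 0.22 CPM to 2.16 and 3.18 CPM (adjusted p = 4e-06), and PDGFRB and TAGLN, of mural and smooth muscle cells, passed with log2 differences of 2.0 and 3.32. ACTA2, a smooth muscle actin, stood at 4.16 and 4.85 CPM in the controls and 18.5 and 21.6 CPM under the combination (adjusted p = 3e-14). The 6 that did not pass were MYH11 and RGS5 of mural and smooth muscle cells, KDR and PECAM1 of endothelium, and CD14 and CD68 of leukocytes. MYH11 read 1.03 and 1.93 CPM in the controls and 1.71 and 1.79 CPM under the combination.

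Most interferon-stimulated genes rose. Their summed level was 2543 to 2556 CPM in the controls and 4564 to 4603 CPM under the combination. IFI27 is shown because its promoter window holds a motif shared by much of the group: the core of the interferon-stimulated response element, GAAA, any 2 bases and GAAA again, searched on both strands and printed in capitals. The window is the 250 bases before the RefSeq start (GRCh38.p14) at chr14:94110486-94110735 on the plus strand, inside the IFI27 span of the deposited table (14:94104836-94116698).
IFI27: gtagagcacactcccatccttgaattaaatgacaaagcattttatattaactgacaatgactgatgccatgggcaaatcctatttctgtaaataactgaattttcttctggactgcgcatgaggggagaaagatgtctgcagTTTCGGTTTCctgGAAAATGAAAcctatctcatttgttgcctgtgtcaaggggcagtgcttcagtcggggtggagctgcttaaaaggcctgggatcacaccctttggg
It holds 2 matches, 1 on each strand. Of 40 interferon-stimulated genes with a window 23 held the motif (57.5%), against 2.51% of all tested genes with a window and 3.07% of all 27305 windows in the RefSeq table. A match is a description of letters and not a measured binding site.

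IFI27, a mitochondrial protein gene that responds strongly to type I interferon, read 1.35 and 1.05 CPM in the controls and 50.5 and 52.3 CPM under the combination (log2 5.41 ± 0.12 SE, adjusted p = 1.7e-27). MX2, a dynamin-like antiviral GTPase, read 0.27 and 0.386 CPM in the controls and 18.3 and 18.5 CPM under the combination (log2 5.78 ± 0.17 SE, adjusted p = 1.1e-23). OAS2, which makes the activator of RNase L on sensing viral RNA, read 0.324 and 0.0551 CPM in the controls and 14.7 and 14.3 CPM under the combination (log2 6.20 ± 0.23 SE, adjusted p = 3.9e-21). For all 3 both combination libraries were far above both controls, although the OAS2 fold rests on few control counts and was 7.88 without control replicate 1 and 5.41 without control replicate 2. Of 51 interferon-stimulated genes tested 48 were higher, 2 lower and 1 (UBA7, the ISG15-activating enzyme, 21.1 to 23.8 CPM) not passed, with a median log2 of 1.85. GBP2, a guanylate-binding protein gene named after its values were seen, was among the genes that fell and averaged 6.11 CPM in the controls and 3.56 CPM under the combination.

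Interferon ligand, receptor and signalling genes split, with 5 of 12 tested higher and 2 lower. IFNE, an epithelial type I interferon gene, read 0.054 and 0.11 CPM in the controls and 0.719 and 0.669 CPM under the combination, SOCS1, the feedback inhibitor of JAK kinases, rose from 0.917 and 0.937 CPM to 3.15 and 3.35 CPM, and IFNAR2, a type I interferon receptor chain, fell from 31.3 and 34.9 CPM to 25.3 and 26.9 CPM. Among receptors that sense nucleic acids 13 of 16 tested were higher and 1 lower. RIGI, the sensor of short double-stranded RNA, rose from 1.57 and 1.05 CPM to 12 and 10.7 CPM (log2 3.11 ± 0.26 SE), and IFIH1, the sensor of long RNA duplexes, rose from 10.1 and 9.53 CPM to 34.4 and 37 CPM (log2 1.86 ± 0.13 SE). IRF3, the factor downstream of both, did not pass at 57.7 and 65.7 CPM (adjusted p = 0.13). MHC class I and peptide loading genes were higher in 15 of 20 cases and lower in 2, by a median log2 of 0.54. HLA-B, a heavy chain, rose from 438 and 467 CPM to 1144 and 1139 CPM, and NLRC5, the transactivator of these genes, from 16.7 and 18.5 CPM to 50.1 and 47.4 CPM (log2 1.47 ± 0.11 SE). HLA genes resemble each other closely, so their split is uncertain. Checkpoint and costimulation genes were higher in 10 of 16 cases and lower in 4, among them NT5E (CD73, which makes adenosine) from 40.2 and 44.6 CPM to 213 and 222 CPM, and ICOSLG, a T cell costimulator, down from 2.21 and 2.26 CPM to 0.276 and 0.446 CPM.

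Most genes of a joint cytokine and NF-kB list rose, some of them from no control count. IL1A, an alarmin cytokine, went from 0 and 0.11 CPM to 24.8 and 23.9 CPM (adjusted p = 8.1e-20). IL1B, its processed relative, went from 0 and 0 CPM to 4.81 and 6.92 CPM, and CSF3, the granulocyte growth factor, from 0 and 0 CPM to 5.86 and 5.41 CPM. In both genes without a control count the fold was at least 35.8 and at least 34.4. Of 45 tested genes of the cytokine and NF-kB list 32 were higher and 6 lower (median log2 1.53, and 1.34 with the 5 genes empty in control at their floor). Their summed level was 2730 to 2735 CPM in the controls and 4817 to 4856 CPM under the combination. LIF, a gp130 cytokine that was already high, did not pass at 199.6 and 213 CPM (adjusted p = 0.33), nor did NFKB1 at 129 and 115 CPM (adjusted p = 0.052). Further NF-kB members, named after their values were seen, split. RELA, RELB and TRAF1 did not pass, and NFKBIA was lower (log2 -0.28). NFKB2, BIRC3 and TNFAIP3 were higher (log2 0.19, 0.92 and 1.19). The 6 lower genes of the list were IL32, CCL28, CX3CL1, TNFAIP2, TNFAIP6 and NFKBIA.

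Most p53 target genes rose, and GDF15 and CDKN1A also stood above both single-drug arms at day 5 (the plot of day 5 arms). GDF15, a stress-secreted cytokine, read 3.78 and 4.63 CPM in the controls and 176 and 173 CPM under the combination (log2 5.37 ± 0.17 SE, adjusted p = 3.2e-23). CDKN1A (p21, the inhibitor of cyclin-dependent kinases) read 116 and 124 CPM in the controls and 428 and 462 CPM under the combination (log2 1.89 ± 0.09 SE, adjusted p = 5.6e-19). Both combination libraries exceeded every control, BMN and DAC library at day 5 for both genes: GDF15 read 14.4 and 12.5 CPM under DAC and 6.19 and 6.83 CPM under BMN, and CDKN1A read 138 and 126 CPM under DAC and 169 and 176 CPM under BMN. MDM2, the ubiquitin ligase that degrades p53, rose from 89.9 and 89.2 CPM to 209 and 208 CPM, a gene named after its values were seen. SPATA18, a p53-induced gene of mitochondrial quality control, rose from 0.486 and 1.16 CPM to 10.2 and 10.6 CPM, above 2.09 and 1.49 CPM under DAC and 2.34 and 1.77 CPM under BMN. RRM2B, the p53-inducible subunit of ribonucleotide reductase, rose from 47.9 and 50 CPM to 217 and 207 CPM (log2 2.11 ± 0.14 SE). Of 33 tested p53 targets 24 were higher and 1 lower, by a median log2 of 0.92. The 1 lower gene, BBC3 (PUMA, a pro-apoptotic protein), fell by 0.47 on the log2 scale (adjusted p = 0.033) and lost that call without control replicate 2 (adjusted p = 0.28) or combination replicate 2 (adjusted p = 0.15) and with DESeq2 (adjusted p = 0.054). POLH, a translesion polymerase, did not pass at 109 and 103 CPM. Outside the list, the noncoding genes PURPL and PINCR, both described as p53-induced, also rose. PURPL went from 0.594 and 1.27 CPM to 99 and 98.1 CPM (log2 6.72 ± 0.21 SE, and 7.32 without control replicate 2), and PINCR from 0 and 0 CPM to 7.85 and 7.59 CPM.

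**Figure D2:**
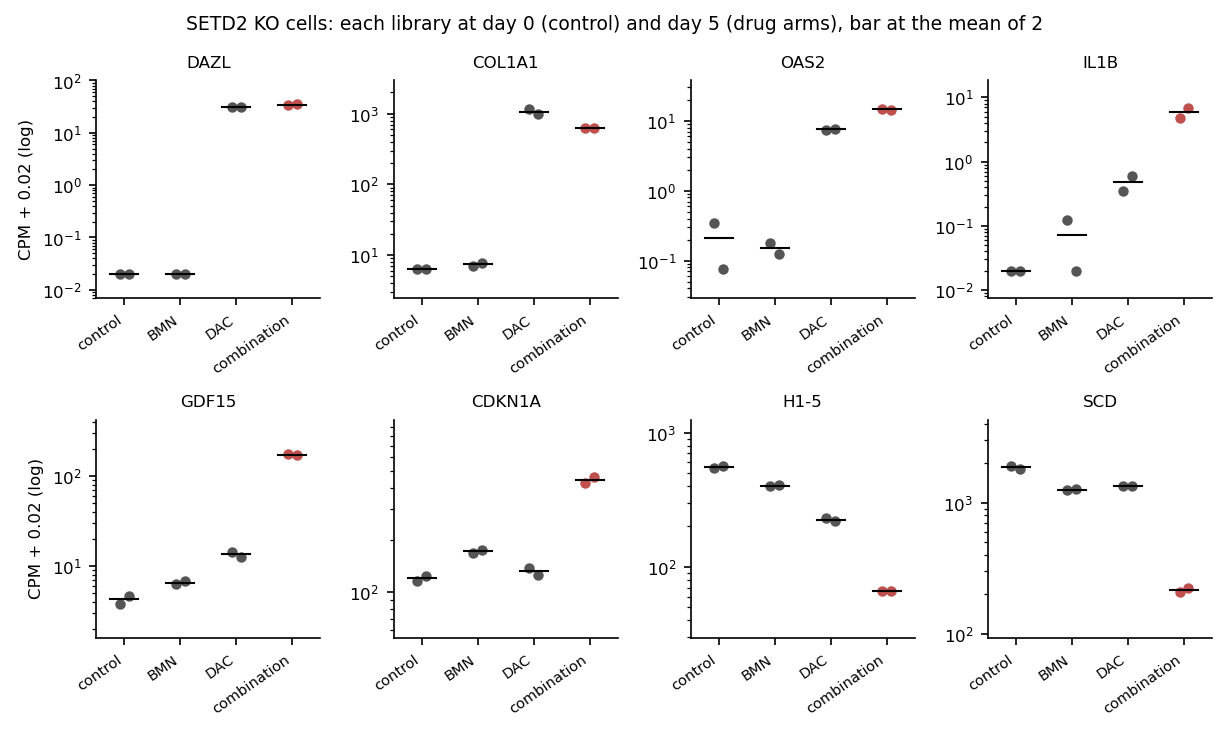
Each panel is 1 gene, the y axis is CPM plus 0.02 on a log axis, and each point is 1 KO library of the day 0 control or of the BMN, DAC or combination arm at day 5, with a bar at the mean of the 2. DAZL and COL1A1 are high under both DAC and the combination, while GDF15 (173 and 176 CPM) and CDKN1A are highest, and H1-5 and SCD (207 and 222 CPM) lowest, under the combination.

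Replication-dependent histone genes fell almost without exception. These genes are transcribed in S phase, mostly from clusters on chromosome 6, and their messages end in a stem loop in place of a poly(A) tail. H1-5, a linker histone, is shown as the member with the largest counts named here: the 250 bases before its RefSeq start (GRCh38.p14, chr6:27867589-27867838, minus strand, directly upstream of 6:27866792-27867588) hold CCAAT, printed in capitals on either strand.
H1-5: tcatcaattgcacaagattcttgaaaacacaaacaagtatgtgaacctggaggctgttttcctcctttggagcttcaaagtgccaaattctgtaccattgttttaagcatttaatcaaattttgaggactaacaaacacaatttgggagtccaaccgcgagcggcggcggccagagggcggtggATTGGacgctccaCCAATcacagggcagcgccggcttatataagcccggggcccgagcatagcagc
CCAAT stood in 40 of 47 matched histone windows (85.1%), against 35% of all tested genes with a window, on either strand, which is again a count of letters. H1-5 read 549 and 559 CPM in the controls and 66.3 and 65.8 CPM under the combination (log2 -3.07 ± 0.08 SE, adjusted p = 5.3e-26). H1-3, another linker histone, read 124 and 129 CPM in the controls and 14.4 and 14.3 CPM under the combination (log2 -3.14 ± 0.09 SE, adjusted p = 9.5e-25). Controls and combination libraries were far apart for both. Of 52 tested histone genes 48 were lower, 1 higher and 3 not passed, by a median log2 of -2.39, and 47 fell at least 2-fold. Their summed level was 7878 to 8177 CPM in the controls and 1536 to 1563 CPM under the combination. The 1 higher gene, H4C9, was near zero throughout, at 0.162 and 0.11 CPM in the controls and 0.553 and 0.614 CPM under the combination, and lost its call without control replicate 2 (adjusted p = 0.055). Clustered histone genes are close copies of each other, so single-gene values are less certain than their sum.

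Genes of DNA replication fell with the histones, by smaller factors. MCM6, a subunit of the replicative helicase, read 167 and 159 CPM in the controls and 55.6 and 56.7 CPM under the combination (log2 -1.54 ± 0.06 SE, adjusted p = 1.3e-20), and MCM5 of the same complex fell by 1.38 on the log2 scale. E2F2, a transcription factor of S-phase genes, fell from 24.9 and 29 CPM to 7.02 and 6.81 CPM (log2 -1.96 ± 0.14 SE). Of 42 tested replication and S-phase genes none was higher, 34 were lower and 8 did not pass, with a median log2 of -0.64. RRM2, the S-phase subunit of ribonucleotide reductase, was among those that did not pass, at 376 and 383 CPM (adjusted p = 0.73). Mitosis genes were lower in 23 of 42 cases and higher in 2, CENPE and HMMR, with a median log2 of -0.30. The kinase gene AURKB fell by 1.00 and the mitotic regulator FOXM1 by 0.98 on the log2 scale. MKI67, a proliferation marker, and TOP2A did not pass (adjusted p = 0.13 and 0.18). MKI67 read 1844 and 1239 CPM in the controls and 1339.9 and 1343 CPM under the combination, so its controls straddled the treated libraries.

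Genes of the drugs' targets and of repair moved by less than 2-fold in most cases. DNMT1, the maintenance methyltransferase that decitabine traps, averaged 316 CPM in the controls and 271 CPM under the combination (log2 -0.22 ± 0.07 SE, adjusted p = 0.0051), a call lost without control replicate 1 (adjusted p = 0.12). DNMT3B, a de novo methyltransferase, did not pass at 55.8 and 55.5 CPM. UHRF1, which brings DNMT1 to hemimethylated DNA, fell from 157 and 158 CPM to 85.5 and 86.2 CPM (log2 -0.87 ± 0.08 SE, adjusted p = 4e-11). CTCFL, a germline paralogue of CTCF, went from 0 and 0 CPM to 3.76 and 4.96 CPM. Of 21 tested genes of the DNA methylation machinery 3 were higher and 11 lower, with the largest fall in TET1 (log2 -2.4). PARP1 fell from 417 and 348 CPM to 282 and 275 CPM (log2 -0.46 ± 0.07 SE), and PARP2 from 33.4 and 29 CPM to 16.9 and 19.2 CPM (log2 -0.79 ± 0.11 SE). UNG, which removes uracil from DNA, fell by 1.15 on the log2 scale, and 12 of 25 PARP and base excision genes were lower against 3 higher. Homologous recombination and Fanconi genes were lower in 20 of 46 cases and higher in 8, with EME1, a nuclease subunit, down by 1.03 and the damage kinase ATM up from 69.8 and 78.5 CPM to 132 and 134 CPM. SLFN11 of this list, which blocks stressed replication forks and was named after its values were seen, fell from 101 and 89.3 CPM to 62.7 and 63.2 CPM (log2 -0.59, adjusted p = 5.3e-09). SETD2 itself changed by -0.19 ± 0.07 SE (adjusted p = 0.028), which did not pass without control replicate 1 (log2 -0.03, adjusted p = 0.8) or without combination replicate 2 (adjusted p = 0.074), nor with only the 4 libraries fitted (adjusted p = 0.069). Of 24 tested H3K36 methylation genes, SETD2 included, 12 were lower and 1 higher.

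Genes that handle nucleosides and drugs moved in both directions. CDA, the cytidine deaminase that inactivates decitabine, read 1.08 and 1.05 CPM in the controls and 15.3 and 16.8 CPM under the combination (log2 3.91 ± 0.19 SE, adjusted p = 3.6e-18). SAMHD1, which cleaves deoxynucleotide triphosphates, read 44.6 and 44.9 CPM in the controls and 87.9 and 87.4 CPM under the combination (log2 0.97 ± 0.07 SE, adjusted p = 3.1e-13). Both genes were higher in both combination libraries, and of 24 tested genes of nucleoside metabolism 11 were higher and 6 lower. Efflux transporters of the ABC family were higher in 5 of 10 cases and lower in 3: ABCC3, which exports organic anions, rose from 46.1 and 48.7 CPM to 112 and 116 CPM, and ABCC4, which exports cyclic nucleotides and nucleoside analogues, fell from 163 and 154 CPM to 84.7 and 80.3 CPM. Their summed level hardly moved, at 959 to 990 CPM in the controls and 978 to 987 CPM under the combination.

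Other named genes fell by larger factors than the replication genes. SEMA5B, a semaphorin expressed in clear cell carcinoma, read 60.9 and 65.7 CPM in the controls and 2.43 and 2.34 CPM under the combination (log2 -4.72 ± 0.17 SE, adjusted p = 2.6e-21). ALDH1A1, which oxidises retinal to retinoic acid, read 320.5 and 293 CPM in the controls and 24.1 and 26.2 CPM under the combination (log2 -3.61 ± 0.07 SE, adjusted p = 6.3e-30). SCD, the desaturase that makes monounsaturated fatty acids, read 1912 and 1795 CPM in the controls and 207 and 222 CPM under the combination (log2 -3.11 ± 0.05 SE, adjusted p = 1.9e-31). No combination library came near a control in any of the 3. The processed pseudogene SCDP1 fell by 3.43 on the log2 scale and may share reads with SCD. VAV3, a guanine nucleotide exchange factor, fell from 16.8 and 18.1 CPM to 0.221 and 0.725 CPM (log2 -5.19 ± 0.33 SE, -6.31 without combination replicate 2 and -4.60 without combination replicate 1). BCL2, the anti-apoptotic protein gene, fell from 27.1 and 26 CPM to 2.43 and 3.18 CPM (log2 -3.24 ± 0.20 SE). IMPA2, an inositol monophosphatase, fell from 32.4 and 32.1 CPM to 2.76 and 2.01 CPM (log2 -3.75 ± 0.16 SE).

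Stress and identity genes split within their lists. Over all genes tested 27.1% were higher and 22.2% lower, and several of the shares below lie near these. No list was tested against them. Integrated stress response genes were lower in 17 of 29 cases and higher in 5, with DDIT4, an mTOR inhibitor, down from 995 and 1052 CPM to 180.3 and 181 CPM and TRIB3, a pseudokinase induced by ATF4, down by 1.94 on the log2 scale, while ATF3 rose by 1.39. Hypoxia-inducible genes were higher in 17 and lower in 11 of 37 cases: NDRG1 fell from 1162 and 1137 CPM to 391 and 412 CPM, TGFA rose from 367 and 355 CPM to 836 and 868 CPM, and VEGFA did not pass at 474 and 505 CPM. NRF2 targets were lower in 12 and higher in 4 of 26 cases, retinoid genes lower in 10 and higher in 6 of 24, and Wnt antagonist genes lower in 5 and higher in 3 of 11. STRA6, the retinol transporter, rose from 0.324 and 0.716 CPM to 25.4 and 25.6 CPM, and DKK1, a Wnt antagonist, went from 0 and 0 CPM to 1.99 and 2.68 CPM. SFRP4, SFRP2 and NOTUM of the Wnt antagonist list passed as lower (log2 -4.71, -3.78 and -3.2). Cell death genes were higher in 17 of 26 cases and lower in 5, with NLRP3, an inflammasome sensor, up from 2.75 and 2.87 CPM to 13.8 and 14.3 CPM. Epithelial genes and keratins were higher in 19 of 30 cases and lower in 5. KRT81, a hair keratin, rose from 0.702 and 0.496 CPM to 55.7 and 50.9 CPM, KRT17, a basal keratin, from 0.054 and 0 CPM to 28.3 and 28.8 CPM, and KRT8 did not pass at 368 and 412 CPM. Mesenchymal genes were higher in 17 of 23 cases and lower in 4, VIM among the latter at a mean of 4171 CPM in control and 3002 CPM under the combination, and INHBA, the activin A subunit, rose from 126 and 117 CPM to 1159 and 1109 CPM. Renal tubule genes were higher in 8 and lower in 10 of 22 cases, and HOX genes higher in 5 and lower in 12 of 34. Imprinted genes were higher in 13 and lower in 6 of 23 cases, and H19, a maternally expressed noncoding RNA, went from 0.054 and 0 CPM to 15.6 and 13.3 CPM.

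**Figure D3:**
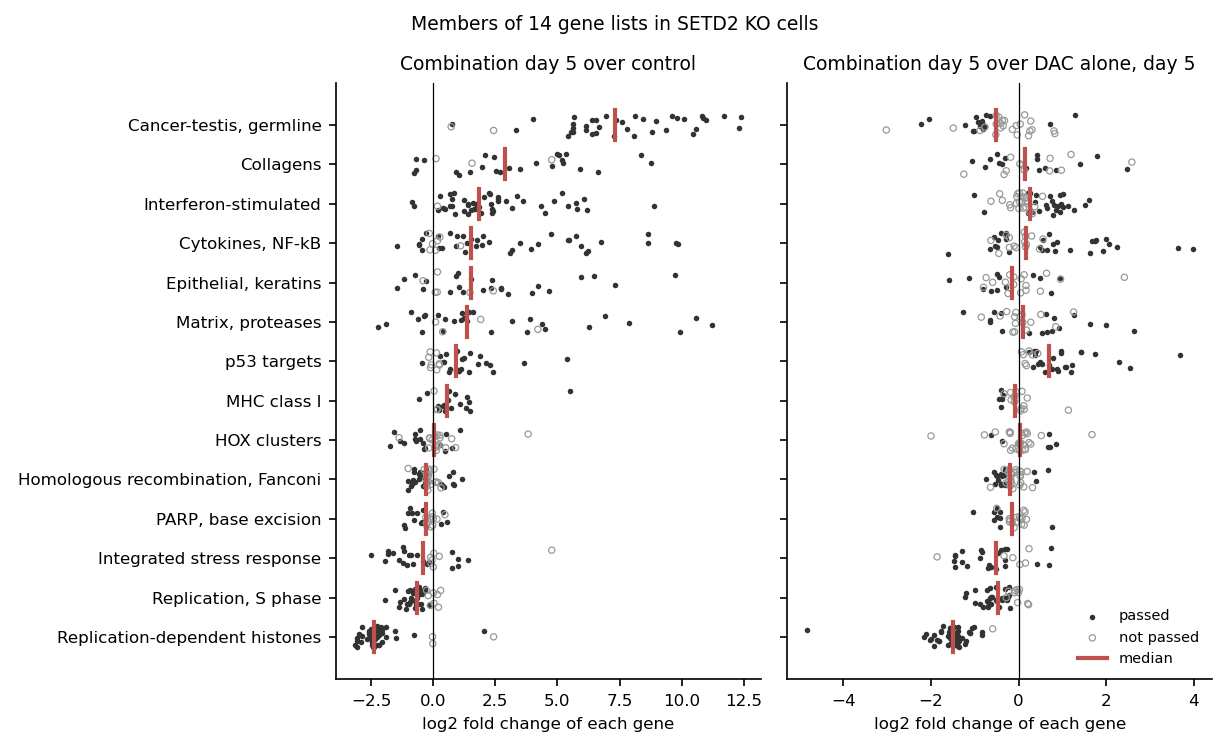
Each dot is 1 tested gene of a list, with filled dots for genes that passed and open dots for those that did not, and the red bar is the list's median; the x axes are log2 fold changes of the combination at day 5 over control (left) and over DAC alone at day 5 (right). The cancer-testis median is 7.31 on the left and -0.51 on the right, and the histone median is negative on both sides (-2.39 and -1.50).

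Against DAC alone at day 5, which asks what the combination differed in from its demethylating component, fewer genes passed: 2369 (10.5%) were higher and 2661 (11.8%) lower. Leaving out DAC replicate 1 left 2983 passing genes, and leaving out combination replicate 1 or 2 left 3174 or 3218, against 5030 with all libraries. The higher genes were then 1395, 1390 and 1325, and without DAC replicate 2 there were 1459 higher and 2599 lower, so that 36% of the passing genes were higher there against 47.1%. p53 targets were higher in 26 of 33 cases and none was lower (median log2 0.70). GDF15 was higher by 3.69 ± 0.15 SE on the log2 scale (adjusted p = 3.4e-19) and CDKN1A by 1.75 ± 0.08 SE (adjusted p = 6e-17). Among all genes the largest rises that the naming rule picked also held CSF3 (0.33 and 0.373 CPM under DAC), IL1B (0.33 and 0.587 CPM under DAC), PINCR (0.824 and 0.64 CPM under DAC) and CYP3A5, a drug-metabolising enzyme gene at 1.37 and 2.29 CPM under DAC and 22.2 and 20.2 CPM under the combination (log2 3.52 ± 0.21 SE). For each of these the 2 combination libraries lay above both DAC libraries. Histone genes were lower than under DAC in 51 of 52 cases with none higher (median log2 -1.50), and H1-5 read 231 and 218 CPM under DAC. Replication genes were lower in 32 of 42 cases with none higher, and integrated stress response genes lower in 20 of 29 and higher in 3. SCD, at 1339 and 1327 CPM under DAC, was lower under the combination by 2.64 ± 0.05 SE on the log2 scale (adjusted p = 4.3e-29).

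Germline and collagen genes were mostly not higher than under DAC alone. Cancer-testis and germline genes were lower under the combination in 14 of 40 cases and higher in 2 (median log2 -0.51), and DAZL, at 30.8 and 31.3 CPM under DAC, did not pass (log2 0.14 ± 0.15 SE, adjusted p = 0.57). PNMA5 read 63.9 and 63.7 CPM under DAC and was lower under the combination (log2 -0.98 ± 0.11 SE). COL5A1 read 549 and 512 CPM under DAC and was lower under the combination (log2 -1.07 ± 0.08 SE, adjusted p = 1.5e-12), and collagen genes as a list split into 9 higher and 7 lower of 28. H19 read 91.4 and 78 CPM under DAC, well above both combination libraries (log2 -2.55 ± 0.11 SE). Interferon-stimulated genes were higher than under DAC in 25 of 51 cases and lower in 2, by a median log2 of 0.26. OAS1, another RNase L activator, read 7.8 and 5.87 CPM under DAC and 15.7 and 14.1 CPM under the combination (log2 1.13 ± 0.14 SE). MHC class I genes were higher in none and lower in 5 of 20 cases.

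Against BMN alone at day 5, 5168 genes (22.9%) were higher under the combination and 4019 (17.8%) lower. Cancer-testis and germline genes were higher than under BMN in 39 of 40 cases, interferon-stimulated genes in 49 of 51 with 2 lower, and histone genes were lower in 48 of 52 with 1 higher. BMN libraries had no DAZL count and 7.02 and 7.77 CPM of COL1A1, beside 622 and 633 CPM under the combination. H1-5 read 399 and 404 CPM under BMN, above both combination libraries (log2 -2.60, adjusted p = 4.7e-24). LAPTM5, a lysosomal gene of blood cells that the naming rule picked here, read 0.312 and 0.417 CPM under BMN and 109 and 113 CPM under the combination. NDRG1 was at 344 and 343 CPM under BMN, below its level under the combination (log2 0.22, adjusted p = 0.0049). The comparisons with control, DAC and BMN share the 2 combination libraries.

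The response of KO cells was then set against that of WT cells under the same treatment, as a difference of log2 differences in 1 fit. In 1628 genes (7.23%) the KO response lay above the WT response and in 2149 (9.54%) below it, and 2162 genes passed in all when only the 8 libraries concerned were fitted. Leaving out WT control replicate 1 gave 2361 genes and leaving out WT control replicate 2 gave 5112. Without combination replicate 1 or 2 of the KO cells 1003 or 1083 genes had the larger response in KO cells. For interferon-stimulated genes the KO response was the smaller in 35 of 51 cases and the larger in 1 (median log2 -1.14). OAS2 rose from 0.324 and 0.0551 to 14.7 and 14.3 CPM in KO cells and from 0.0504 and 0.155 to 111 and 113 CPM in WT cells, a difference of -3.82 ± 0.76 SE (adjusted p = 0.00062). For histone genes the difference was negative in 48 of 52 cases and positive in 1 (median log2 -1.51): H1-5 fell by 3.07 in KO cells and by 1.69 in WT cells, where it read 328 and 391 CPM at day 0 and 104 and 119 CPM at day 5. UHRF1 changed by 0.08 ± 0.08 SE in WT cells (adjusted p = 0.48), and its difference of -0.95 ± 0.11 SE passed (adjusted p = 1e-07). CDKN1A rose by 1.79 ± 0.09 SE in WT cells, and its difference between the lines was 0.11 ± 0.12 SE (adjusted p = 0.62). Cancer-testis and germline genes differed in 4 of 40 cases, all with the larger response in KO cells, and 28 of the 40 had no count in the KO controls, so their difference of folds is poorly determined. Each genotype is 1 line, so the genotype and other differences between the lines cannot be told apart.

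**Figure D4:**
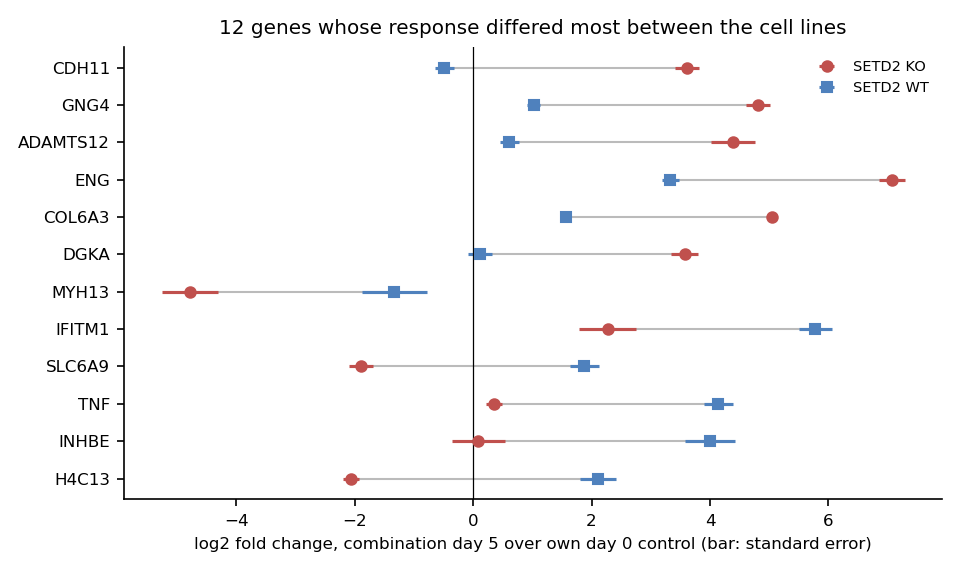
For each of 12 genes the x axis gives the log2 fold change of the combination at day 5 over the line's own day 0 control, with red circles for KO cells, blue squares for WT cells and bars for the standard error. ENG, CDH11, GNG4, COL6A3, ADAMTS12 and DGKA have the higher value in KO cells and H4C13, INHBE, TNF, SLC6A9, IFITM1 and MYH13 the lower.

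Later libraries on the combination place the day 5 levels in time (the plot of days). DAZL read 5.51 and 5.18 CPM at day 16 and 0.443 and 0.612 CPM at day 26, below its day 5 level. GDF15 read 30.8 and 31.4 CPM at day 16 and 6.39 and 5.91 CPM at day 26, near its control level. OAS2 went the other way, to 221 and 217 CPM at day 16 and 119 and 120.1 CPM at day 26. IL1B also peaked later, with 23.7 and 21.9 CPM at day 16 and 0.295 and 0.153 CPM at day 26. COL1A1 stayed high, at 477 and 471 CPM at day 16 and 338 and 348 CPM at day 26. H1-5 read 318 and 317 CPM at day 16, between its day 5 and control levels. SCD was still at 223 and 228 CPM at day 16 and reached 789 and 816 CPM at day 26. These levels are given as a description, with no test between days.

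**Figure D5:**
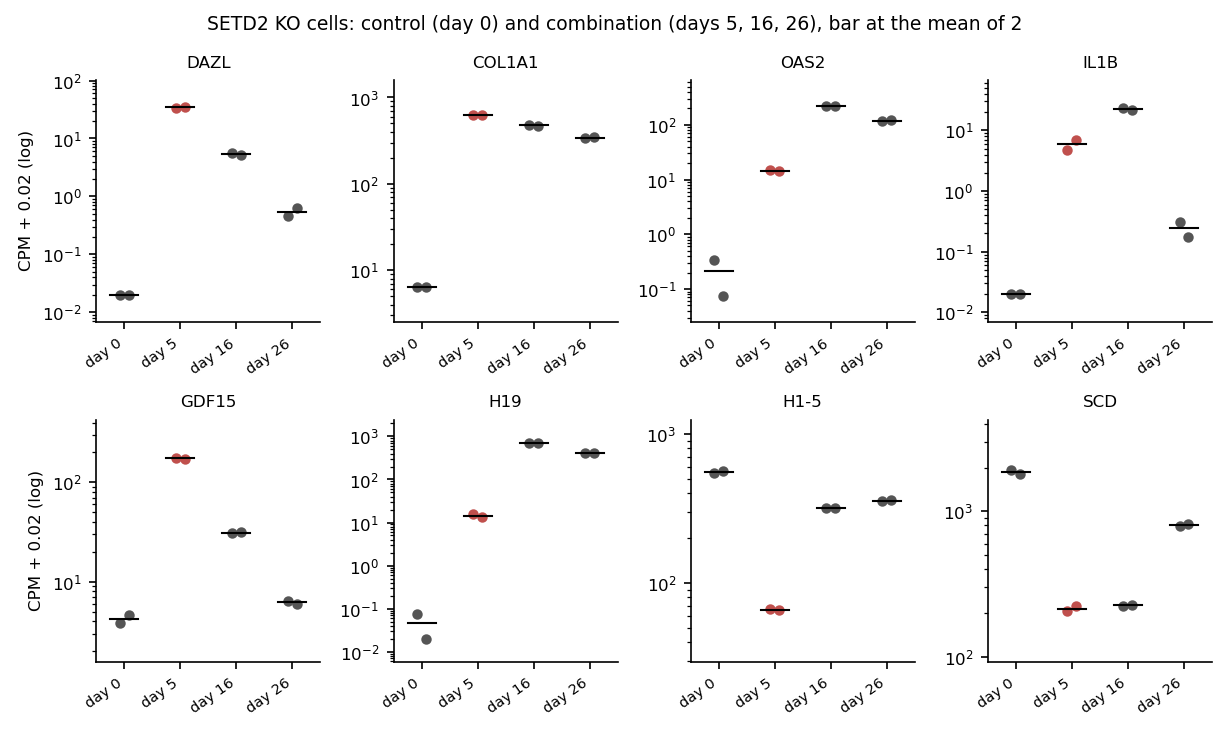
Each panel is 1 gene, the y axis is CPM plus 0.02 on a log axis, and each point is 1 KO library of the day 0 control or of the combination at day 5, 16 or 26, with a bar at the mean of the 2. GDF15 and DAZL are highest at day 5, while OAS2 (221 and 217 CPM) and H19 (698 and 721 CPM) are highest at day 16.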

How the data were processed

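RNA was sequenced from 40 libraries (20 groups of 2), and 1 deposited table of gene counts was used. The authors counted reads with featureCounts 1.5.0-p1 on STAR alignments to GRCh38 with Ensembl 104 genes, per the file headers, on 1 strand, dropping duplicates and reads with a mapping quality below 20; FastQC, Trimmomatic and Partek are named in the submitters' processing notes. The table lists 37 mitochondrial genes, all at 0. The deposited gene length column was not used.

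The counts as deposited were fitted over all 40 libraries with edgeR 4.0.16 (R 4.3.3; filterByExpr, TMM, quasi-likelihood test, Benjamini-Hochberg adjustment), which gives 20 residual degrees of freedom. CPM are TMM-scaled. The standard error is the log2 difference over the square root of F. Passed means an adjusted p below 0.05. A gene without a control count is given against a floor of 3 counts per library, which covers counting error only. Symbols came from the reference tables (42028 of 60664 genes), promoters from RefSeq (GRCh38.p14).

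Named genes were the largest rises and falls whose groups did not overlap (3 or more counts in each library, higher group averaging 5 CPM or more), the 8 highest genes empty in control, and per list up to 6 passing and 2 not passing members; exceptions are stated, and some genes are not reported here. The comparison and its 34 gene lists were chosen with earlier results of these data known. Alternatives were other size factors, DESeq2 1.42.0, other filters, fewer libraries, a replicate block, a term for a suffix of the alignment names, and leaving out each library.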

Additional observations from a re-analysis of the deposited data

Results flagged for a closer look

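Response to the combination differed between KO and WT cells, by the test of the difference itself, for 12 genes that the naming rule picked (differences are KO minus WT on the log2 scale, edgeR adjusted p). CDH11, a mesenchymal cadherin, rose in KO cells from 1.46 and 1.1 CPM to 16.8 and 14.7 CPM and read 9.47 and 10.2 CPM before and 7.1 and 6.93 CPM after in WT cells (difference 4.10, adjusted p = 1.4e-13). The other differences above zero were 3.79 for GNG4 (a G protein subunit), 3.78 for ADAMTS12 (a matrix protease), 3.74 for ENG, 3.49 for COL6A3 (a collagen VI chain) and 3.46 for DGKA (a diacylglycerol kinase). For GNG4, ADAMTS12, COL6A3, CDH11, ENG and DGKA the WT control mean lay above the KO control mean: COL6A3 averaged 171 CPM in WT controls and 13.4 CPM in KO controls, and 505 and 443 CPM after the combination.

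H4C13, a histone H4 gene, fell in KO cells from 30.8 and 26.2 CPM to 7.74 and 5.86 CPM and rose in WT cells from 0.655 and 0.414 CPM to 2.26 and 2.41 CPM (difference -4.18, adjusted p = 1.2e-11). SLC6A9, a glycine transporter, moved in opposite directions in the same way (difference -3.77, adjusted p = 6.4e-11). INHBE (an activin subunit), with a difference of -3.91, averaged 1.12 and 1.19 CPM in KO cells and 0.386 and 6.24 CPM in WT cells. TNF, with -3.79, averaged 20.8 and 26.4 CPM in KO cells and 0.747 and 13.1 CPM in WT cells; its rise within KO cells (adjusted p = 0.046) did not pass without control replicate 1 (adjusted p = 0.19), control replicate 2 (0.15) or combination replicate 2 (0.45), with a term for the suffix of the alignment names (0.077) or with no filter on low counts (0.12). IFITM1, an interferon-induced membrane protein gene with close relatives, had a difference of -3.51, and MYH13, a muscle myosin gene, of -3.46.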

How the results depend on the processing

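The count of passing genes in the comparison with control lay between 9282 and 11105 over all alternatives, against 11093, and was 10524 with DESeq2. The count against BMN alone lay between 7291 and 10386. Against DAC alone, leaving out 1 library gave 2983 to 4058 genes in place of 5030. For KO minus WT, fitting only the libraries of the contrast gave 2162 genes in place of 3777, and leaving out 1 library gave 2361 to 5112; fewer libraries enter these fits. Replicate numbers were not used to pair the samples in the main fit. The correlation of replicate deviations was -0.045 between combination and control. It ran from -0.472 to 0.641 over pairs of the 20 groups, so whether replicate numbers pair other groups is not settled. With the replicate block 11105 genes passed against control, 5035 against DAC, 9215 against BMN and 3821 for KO minus WT. Of 333 named genes tested against control 268 passed, none of the passing genes changed direction in those of the 11 alternatives that tested it, 16 passing genes lost their call in at least 1 and 16 genes gained one. Among the 4 libraries only control replicate 2 has the _L1_1 suffix, whose meaning is not given; with a term for it 11090 genes passed. RLE factors moved the median of all genes from 0.084 to 0.105. Depth limits the fold of genes with few control counts.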

Other observations

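Several genes outside the lists were looked up after related genes had been seen to move. Only their levels are given, and their results in the fit are left out except for SQLE. INSIG1, the retention protein of the SREBP pathway, read 441 and 467 CPM in the controls, 440 and 449 CPM under BMN, 515 and 512 CPM under DAC and 134 and 135 CPM under the combination. FADS2, a desaturase of polyunsaturated fatty acids, read 876 and 853 CPM in the controls, 601 and 602 CPM under BMN, 700.5 and 642 CPM under DAC and 246 and 248 CPM under the combination. SREBF1, which encodes an SREBP factor, read 177 and 203 CPM in the controls, 126 and 127 CPM under BMN, 213 and 176 CPM under DAC and 72.7 and 71.1 CPM under the combination. SQLE, an early enzyme of sterol synthesis, read 272 and 259 CPM in the controls and 293 and 290.4 CPM under the combination, and so was not lower there. It passed as higher in the main fit, a call lost with only the 4 libraries fitted and with no filter on low counts.

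AREG, an EGFR ligand gene, read 0.648 and 1.6 CPM in the controls, 7.2 and 8.75 CPM under DAC and 29.1 and 32.5 CPM under the combination. DUSP5, an ERK phosphatase, read 13.8 and 13.2 CPM in the controls, 48.1 and 42.9 CPM under DAC and 114 and 109 CPM under the combination. HMGA2, an oncofetal chromatin protein gene, read 8.2 and 8.65 CPM in the controls and 59.5 and 65.7 CPM under the combination. NEAT1, the noncoding scaffold of paraspeckles, read 1435 and 1392 CPM in the controls, 2049.5 and 1979 CPM under BMN, 1192 and 1268 CPM under DAC and 4257 and 4297 CPM under the combination.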
